A study of Mus musculus with 3 samples.

Results

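Complex I genes were followed through 3 mRNA sequencing libraries of mouse primary pre-osteoclasts, the mononuclear cells that later fuse into bone-resorbing osteoclasts. The members are the genes of the deposited table whose symbol begins with Nduf and whose mean level over the libraries was at least 1 FPKM (a level that divides fragments by transcript length and by library depth). Of 45 such symbols, 44 met that level, out of 10358 genes that met it and 24067 in the table. The one below it was Ndufa4l2, with a mean of 0.0247 FPKM, and the lowest one kept was Ndufaf5, with a mean of 2.09 FPKM.

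The cells came from bone, and all were given MCSF and RANKL for 2 days to start differentiation. One library came from cells with a control short hairpin RNA (shRNA) and no shear (labelled WT, treatment none), called static here, and one from cells with control shRNA under orbital shear (labelled WT). The last came from cells under orbital shear with shRNA against Ift88, a gene of the transport machinery that builds the primary cilium (labelled Ift88 knockdown). Orbital shear, fluid flow from a circling culture plate, lasted 24 hours and ended at RNA extraction. Each group had 1 library, so no difference below has a replicate check and no p-value is given. The Ift88 hairpin was sampled under shear alone, so its effect without shear cannot be told apart from its effect with it. The number of animals and whether cultures were pooled are not given in the labels.

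Complex I, NADH:ubiquinone oxidoreductase, is the entry point of the mitochondrial respiratory chain. It takes electrons from NADH at the tip of an arm in the matrix (the N module), passes them along iron-sulfur clusters to ubiquinone (the Q module), and pumps protons through an arm in the inner membrane with a proximal and a distal part. A small core set of subunits, some encoded by mitochondrial DNA, does the chemistry, and a larger set of supernumerary subunits surrounds it. Assembly factors help to build the complex but do not stay in it. Osteoclasts are rich in mitochondria, and resorption is known to demand much ATP. The mitochondrially encoded subunits, Ndufb1 and Ndufaf8 were not analysed here.

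The promoter windows of the members were read for the letters of motifs of factors linked to nuclear genes of respiration. RefSeq promoters (build GRCm38.p6, 250 bases before to 50 bases after the start) were matched for 39 of the 44 members. Both strands were searched for a pair of NRF1 forms that overlap each other (Ndufaf5 below shows the palindromic form, Ndufaf4 both, and Ndufa8 the core form as it reads on the opposite strand), YY1 (the capitals of Ndufs4), CCGGAAGT (ETS/GABP, on the opposite strand in Ndufs3) and TCAAGGTCA (ERRA). At least 1 of these was found in 9 members (23.1%), against 7.0% of the 27025 genes with promoters and 16.3% of the other 8354 genes that met the expression level. The stretches that hold a match are shown 5′ to 3′ on the gene's strand, with the matched letters in capitals, so that their positions and flanks can be compared.
Ndufs4 (chr13:114388045-114388074, minus strand): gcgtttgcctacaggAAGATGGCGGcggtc
Ndufs6 (chr13:73328433-73328462, minus strand): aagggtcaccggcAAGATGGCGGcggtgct
Ndufs7 (chr10:80249463-80249492, plus strand): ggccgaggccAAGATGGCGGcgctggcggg
Ndufa9 (chr6:126849096-126849125, minus strand): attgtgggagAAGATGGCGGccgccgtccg
Ndufa8 (chr2:36049328-36049357, minus strand): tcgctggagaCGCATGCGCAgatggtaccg
Ndufaf4 (chr4:24897959-24897988, plus strand): cccagatgtcTGCGCATGCGCctgtgcgga
Ndufaf5 (chr2:140170652-140170681, plus strand): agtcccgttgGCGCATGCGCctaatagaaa
Ndufs3 (chr2:90904703-90904732, minus strand): tgcacatttccACTTCCGGtccgtgccctt

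The YY1 letters were in 4 members, Ndufs4, Ndufs6, Ndufs7 and Ndufa9 (10.3% of 39, against 2.73% of the other expressed genes). In all 4 the match began 24 to 35 bases past the start and read along the gene's strand. One of the NRF1 forms was in Ndufa8, Ndufa11, Ndufaf4 and Ndufaf5. The palindromic form was found in 7.7% of members and 2.59% of the other expressed genes, and the core form in 5.1% and 2.67%. The ETS/GABP letters were in Ndufs3 alone (2.6% against 10.5%), and the ERRA letters were in no member window (0.359% of the other expressed genes). In Ndufa11, a supernumerary membrane subunit, the NRF1 letters began 60 bases before the start. The 250 bases upstream of it, which carry this match and none of the other motifs, are shown as an example of a member promoter.
Ndufa11 (chr17:56717512-56717761, plus strand): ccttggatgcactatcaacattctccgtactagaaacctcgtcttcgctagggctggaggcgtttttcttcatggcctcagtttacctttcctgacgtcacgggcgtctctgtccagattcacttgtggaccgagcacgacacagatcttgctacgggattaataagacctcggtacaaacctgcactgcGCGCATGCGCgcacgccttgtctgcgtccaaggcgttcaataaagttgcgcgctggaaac

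Estimated depth was 35100000 fragments in the static, 35650000 in the sheared control and 35350000 in the sheared Ift88 shRNA library. Ift88 was at 2.98, 2.71 and 1.197 FPKM, lowest in the library labelled as its knockdown. Macrophage markers were abundant: 8 of 9 listed symbols were matched, and all 8 reached 1 FPKM. The unmatched symbol, Adgre1, is another name of the matched Emr1. Among the osteoclast markers 8 of 11 reached 1 FPKM, Acp5 and Ctsk included. Of the other osteoclast markers, Ocstamp, Oscar and Calcr stayed under 1 FPKM in every library. Erythroid markers were listed at 0 in every library, and lymphoid markers summed to at most 0.0963 FPKM. In the order static, sheared control, sheared Ift88 shRNA, the osteoclast list summed to 445, 339 and 413 FPKM, the neutrophil list to 53.0, 20.8 and 25.1, the stromal list to 10.3, 7.59 and 9.73 and the endothelial list to 28.6, 26.8 and 28.5. The macrophage list summed to 33340, 31690 and 32920 FPKM, nearly all of it Lyz2 (30812, 29213 and 30408). These 5 sums were lowest in the sheared control library, which the shear and knockdown comparisons share, but not every gene followed its sum. Of the genes at 1 FPKM or more, 6 of 8 osteoclast, 5 of 8 macrophage, 3 of 3 neutrophil, 4 of 4 stromal and 2 of 2 endothelial markers were lowest there. Among the macrophage markers Cd68 was at 1787, 1799 and 1783 FPKM and Csf1r at 248, 251 and 272. The endothelial sum was mostly Vwf (22.8, 21.8 and 22.4 FPKM), while Pecam1 and Cdh5 stayed under 1 FPKM in every library. The part of cell makeup in the results below was not tested. In bulk RNA, fewer cells of a type and less RNA per cell cannot be told apart.

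The subunit genes formed a high and uneven set, and the assembly factor genes a low one. The 36 structural subunits ranged from 12.1 to 230.6 FPKM in the static library, a span of 19.1-fold, from 14.5 to 245 in the sheared control library and from 14.5 to 247 with Ift88 shRNA. The lowest was Ndufa11 and the highest Ndufb7, a supernumerary subunit of the distal membrane arm, in all 3 libraries. The median member stood at 61.8 FPKM in static cells, 66.9 in sheared control cells and 64.1 with Ift88 shRNA, against 11.06, 10.85 and 11.04 for all expressed genes. All members together made up 0.628%, 0.661% and 0.672% of the summed FPKM.

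**Figure D1:**
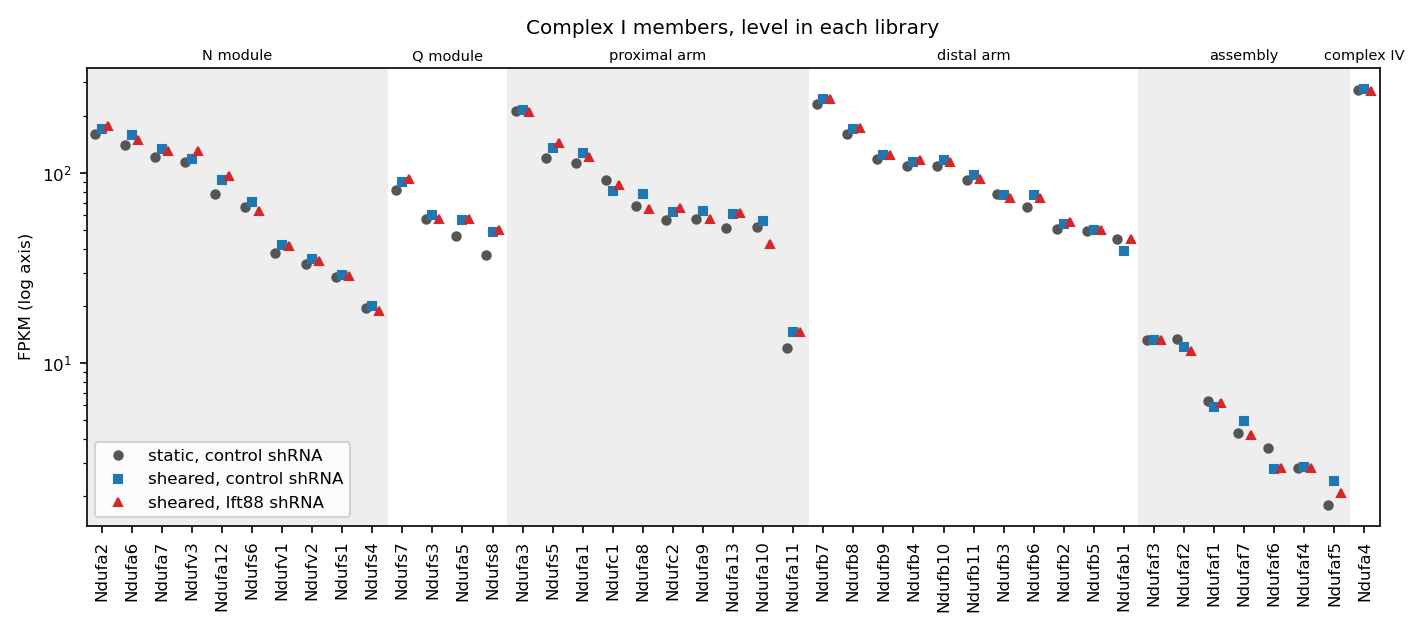
FPKM (log axis) of 43 members in the static control (circles), sheared control (squares) and sheared Ift88 shRNA (triangles) libraries, grouped by module and ordered within it by mean level. The structural subunits lie between 12.1 and 247 FPKM, Ndufa4 (complex IV) at up to 278 and the assembly factors between 1.795 and 13.4; each point is 1 library, so there are no error bars.

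In the N module the highest was Ndufa2, a small supernumerary subunit, at 160, 171 and 177 FPKM, and the lowest Ndufs4, needed for a stable N module, at 19.6, 19.9 and 18.9. Values are given throughout in the order static, sheared control, sheared Ift88 shRNA. In the proximal membrane arm Ndufa3 was the highest, at 212, 215 and 211 FPKM, and the interval of each ratio between them included 1. In the distal arm Ndufab1 was the lowest, at 45.3, 38.7 and 45.2 FPKM. Ndufab1 is the mitochondrial acyl carrier protein, which also serves fatty acid and lipoic acid synthesis.

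The shear comparison divides the sheared control library by the static one and addresses how pre-osteoclasts respond to fluid shear. Complex I subunit genes were mostly a little higher in the sheared library, while assembly factor genes were about evenly split. Of the 44 members, 37 were higher and 7 lower, where 46.0% of all expressed genes were higher and 53.9% lower, and the median log2 ratio of (FPKM + 1) was 0.089 against -0.011 for all expressed genes. Complex I transcripts are short, and of other expressed genes under 1000 bases 63.6% were higher; centred on genes of similar length, 32 of the 44 members were higher and their median was 0.038. Among the structural subunits 33 of 36 were higher (median 0.097); the exceptions were Ndufab1, Ndufc1 and Ndufb3. Among the assembly factors 3 of 7 were higher (median -0.0023). Most subunits had a shortest transcript under 1000 bases, while the assembly factors had 678 (Ndufaf2) or 1082 to 3632 bases. Other expressed genes of 1000 bases or more had a median of -0.015. These class medians were not centred on length, so class and length cannot be told apart in them. The difference between subunits and assembly factors was not tested. The differences were small: no member differed by 2-fold in either direction (0.116% of expressed genes were 2-fold higher and 0.164% 2-fold lower). On the same scale 3 members, Ndufs8, Ndufa5 and Ndufaf5, were at least 1.2-fold higher (background 1.94%) and 1, Ndufaf6, at least 1.2-fold lower (background 2.26%).

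Intervals given with ratios are 95% Clopper-Pearson intervals from estimated fragments. They cover counting error only, not the spread between cultures, and were computed for the 39 members whose shortest transcript exceeds 500 bases. In the shear comparison the interval lay above 1 for 17 of the 39 (background 14.6%) and below 1 for 1 (background 18.9%). Of the 44 members, 17 share exon bases with another gene or have a near-identical copy in the annotation, and whether counting used strand is not stated, so their values are less certain.

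Most of the nuclear core subunits carry the flavin or iron-sulfur clusters, or bind ubiquinone. All 7 nuclear core genes were higher in sheared cells, with Ndufs8 farthest from the static level. Ndufs8, which holds a pair of iron-sulfur clusters in the Q module (chromosome 19, 3908863 to 3912774 in GRCm38), was at 37.0 FPKM in static, 49.3 in sheared control and 50.1 in sheared Ift88 shRNA cells. Static cells were thus low and both sheared libraries high and close to each other. The sheared over static ratio was 1.33 (1.22 to 1.45), from an estimated 943 and 1275 fragments. Ndufv1, the flavin subunit that oxidizes NADH, was at 37.8, 42.0 and 41.3 FPKM (shear ratio 1.11, 1.04 to 1.18). Ndufs7, which carries the last cluster before ubiquinone, was at 82.0, 89.7 and 93.7 FPKM (1.09, 1.02 to 1.17). Other core genes had shear intervals that included 1. Ndufs1, the largest subunit of the matrix arm, was at 28.3, 29.1 and 28.9 FPKM. Ndufv2, an iron-sulfur subunit of the N module, was at 33.3, 35.3 and 34.6 FPKM. Ndufs3, a Q module subunit, was at 57.4, 60.1 and 57.1 FPKM. Ndufs1 and Ndufs3 are among the members that share sequence with other genes.

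Among supernumerary subunits, all 7 of the N module and the 1 of the Q module were higher in the sheared control library than in the static one. Ndufa5, a Q module subunit (chromosome 6, 24518662 to 24527690), was at 46.9, 56.8 and 57.2 FPKM, with a shear ratio of 1.21 (1.12 to 1.31). Ndufa12, which takes its place in the N module late in assembly (chromosome 10, 94199035 to 94221440), was at 77.5, 92.0 and 96.1 FPKM (1.19, 1.09 to 1.29). For both genes the static library was the low one and the interval of the ratio between the sheared libraries included 1. Ndufa12 has a near-identical copy, Gm15920, which was not analysed here, so fragments of that copy may be counted in its value.

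In the proximal membrane arm 9 of 10 genes were higher (median 0.16). Ndufa13, also known as GRIM-19, was at 51.6, 60.8 and 61.8 FPKM (1.18, 1.11 to 1.25); 375 bases of its exons lie opposite Tssk6, a gene at 1.10 FPKM or less. Ndufa11 was at 12.1, 14.5 and 14.5 FPKM, and its shear ratio of 1.21 had an interval of 0.968 to 1.51. Ndufc2, a partner of Ndufc1, was at 56.8, 62.7 and 65.7 FPKM (1.10, 1.01 to 1.204). Ndufa1, a small membrane subunit with a transcript too short for an interval, was at 113.5, 127.9 and 121.7 FPKM (ratio 1.13). In each of these the static library was the lowest. Ndufs5 was at 119.7, 136 and 145 FPKM (1.14, 1.06 to 1.22), but its value is uncertain. A copy of it with 99.4% identity, BC002163, was at 15.4, 6.07 and 5.81 FPKM, and the sum of both genes was 135, 143 and 151, a shear ratio of 1.055 (the length of the copy's transcript is not in the annotation used).

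Ndufc1, a small subunit of the membrane arm, went the other way, at 92.3, 80.2 and 86.8 FPKM, a shear ratio of 0.869. Its transcript has 315 bases, the shortest of all members, and no interval was computed. In the distal arm 9 of 11 genes were higher (median 0.078), with Ndufb6 at 66.7, 76.7 and 74.3 FPKM (1.15, 1.06 to 1.25), although 257 bases of its exons lie opposite Smim27. Ndufb7, the highest subunit, was at 230.6, 245 and 247 FPKM (1.06, 1.01 to 1.11). Ndufb3 was nearly level at 77.3, 76.9 and 73.8 FPKM (0.995, 0.927 to 1.07), and Ndufb5 at 49.6, 50.3 and 50.1. The other distal members, Ndufb2, Ndufb4, Ndufb8, Ndufb9, Ndufb10 and Ndufb11, had shear ratios of 1.0457 to 1.07. Ndufab1 (chromosome 7, 122086815 to 122101848) was lower in the sheared control library than in the other 2, with a shear ratio of 0.856 (0.822 to 0.891). That interval rests on an annotated transcript of 3479 bases and would be wider with a shorter one, and 123 of its exon bases lie opposite another transcript, Gm44986. Ndufab1 was the one member with an interval wholly below 1 in this comparison.

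The assembly factors had few fragments and wide intervals, all 7 of which included 1. Ndufaf5, which modifies Ndufs7 during assembly, was at 1.795, 2.41 and 2.07 FPKM (1.34, 0.954 to 1.90, from an estimated 61.5 and 83.8 fragments). Ndufaf6, an early assembly factor, was at 3.59, 2.77 and 2.81 FPKM (0.771, 0.577 to 1.03). Ndufaf7, a methyltransferase, was at 4.29, 4.97 and 4.19 FPKM. Ndufaf1, which acts in building the membrane arm, was at 6.30, 5.87 and 6.20, and Ndufaf2, which acts late, at 13.4, 12.2 and 11.6. Ndufaf3 (13.2 in each library) and Ndufaf4 (2.82, 2.83 and 2.82), partners in Q module assembly, had nearly equal levels. Differences of the median size seen in the subunits were not detectable for these genes at this depth.

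**Figure D2:**
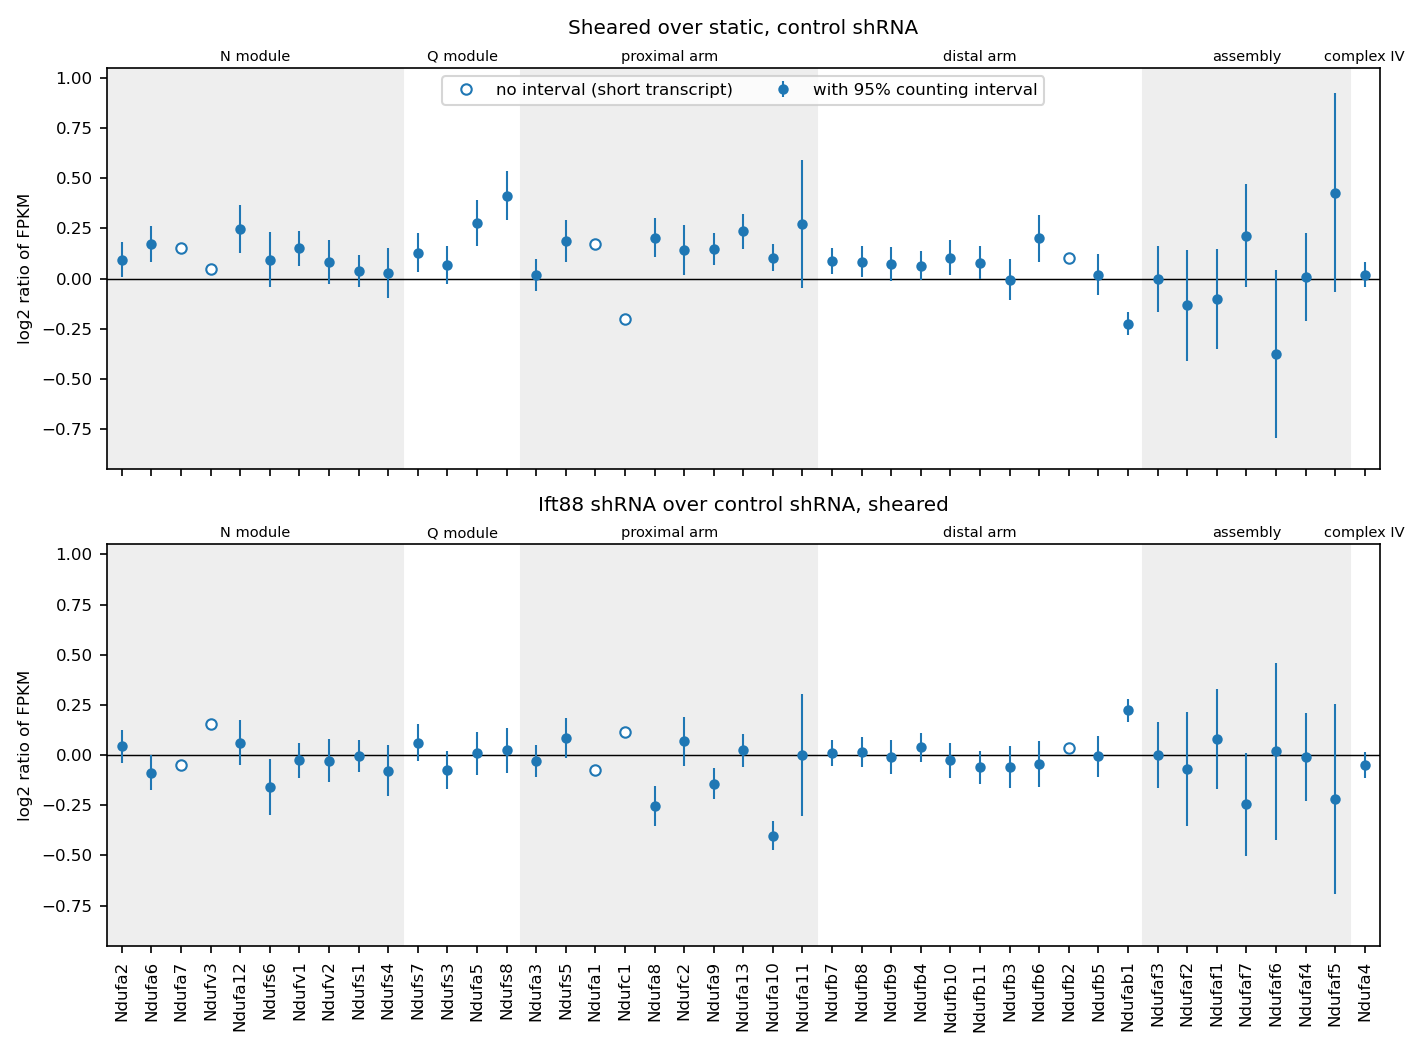
Log2 ratio of FPKM for 43 members, sheared over static cells (upper panel) and Ift88 shRNA over control shRNA under shear (lower panel); bars are 95% counting intervals, and open points are members with transcripts too short for one. Most subunits lie above 0 in the upper panel, with Ndufs8 the highest subunit at a ratio of 1.33, and around 0 in the lower panel, with Ndufa10 lowest at 0.757.

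Transcript length moved with the shear ratio. The median shortest transcript was 772 bases for members and 2641 for all expressed genes, and 28 of 44 members were under 1000 bases against 9.48% of expressed genes. Spearman's rho between shear log2 ratio and length was -0.26 over 10268 expressed genes, which all come from the same pair of libraries, and -0.21 over the 44 members. The 945 other expressed genes under 1000 bases had a median shear log2 ratio of 0.047, 8.25% were at least 1.2-fold higher, and 26.1% of those with an interval had it above 1. The 28 members under 1000 bases were higher in 25 cases, with a median of 0.097; 2 were at least 1.2-fold higher, and 13 of 23 had an interval above 1. The 16 longer members were higher in 12 cases, with a median of 0.031 against -0.015 for other genes of that length. After centring on length and GC content, with 5 bins of each, the median of all members was 0.054, with 33 of 44 higher. Centring on length alone used 10 bins, so its correction for length was finer. After centring on length alone or on both, 1 member, Ndufs8, was at least 1.2-fold higher. The part of length in the shear result was not tested beyond these values.

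**Figure D3:**
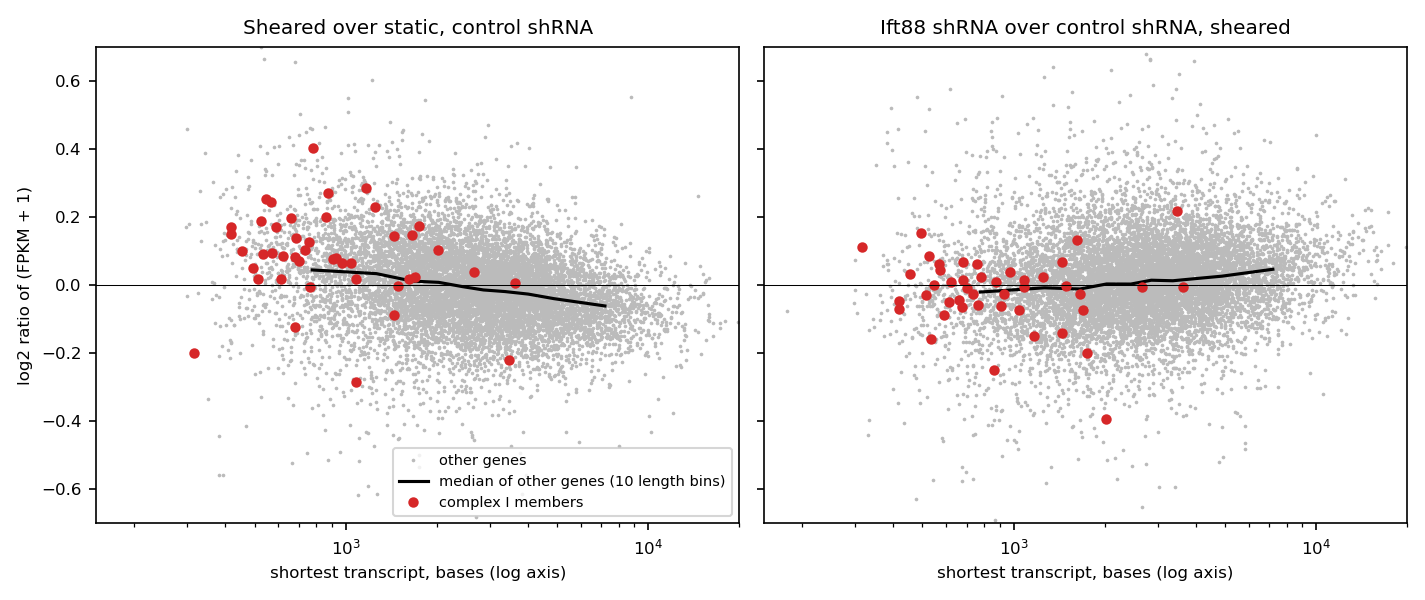
Log2 ratio of (FPKM + 1) against the length of the shortest transcript (log axis) for complex I members (red) and other expressed genes (grey), in the shear (left) and knockdown (right) comparisons; the line joins medians of other genes in 10 length bins, and genes beyond 0.7 in either direction are not drawn. The line falls from short to long transcripts in the shear panel, and most members under 1000 bases lie above it.

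The rest of the respiratory chain is set beside complex I to show how far the pattern was shared. Of 40 genes of complexes II to V, 29 were higher in sheared cells (median 0.061), where 46.0% of all expressed genes were higher. Of expressed genes under 1000 bases other than members, 63.6% were higher, and the values of these lists were not centred on length. Complex III (6 of 9, median 0.13) and complex IV (9 of 10, median 0.10) had medians close to that of complex I subunits. Complex V (12 of 17, median 0.045) and complex II (2 of 4, median -0.028) were lower; differences between complexes were not tested. Uqcrfs1, the Rieske protein of complex III, was at 49.4, 57.3 and 51.9 FPKM, and Cox6a1 of complex IV at 429, 485 and 511. Ndufa4, named with complex I but now known as a subunit of complex IV, was at 275, 278 and 269 FPKM, with a shear ratio of 1.0129 (0.970 to 1.06).

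Complex I assembly factors of other names were higher in 5 of 12 cases (median -0.0024), close to the Nduf assembly factors. Tmem126b, which acts in building the membrane arm, was at 14.3, 12.8 and 10.7 FPKM, lowest with Ift88 shRNA. Of 11 expressed regulators of mitochondrial gene expression, 4 were higher (median -0.0062), with the ETS factor gene Gabpa at 8.21, 7.09 and 7.19 FPKM and Yy1 at 26.0, 23.6 and 23.6. Of 12 expressed hypoxia response genes, 5 were higher (median -0.031).

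**Figure D4:**
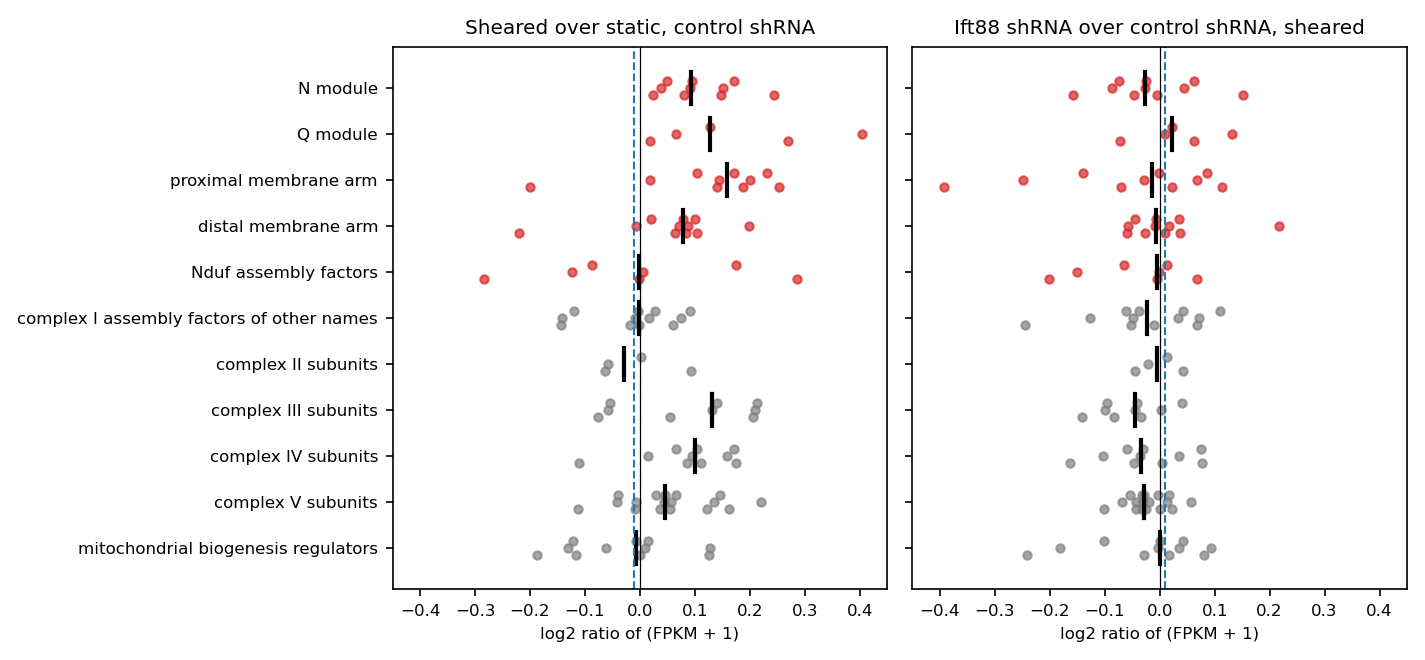
Log2 ratio of (FPKM + 1) of each expressed gene in complex I modules (red) and in other lists of mitochondrial genes (grey), sheared over static (left) and Ift88 shRNA over control shRNA under shear (right). Black bars are list medians and the dashed line is the median of all expressed genes. In the left panel the 4 subunit modules have medians of 0.078 to 0.16, and the Nduf assembly factors of -0.0023. Values are not centred on transcript length, which differs between these lists.

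The knockdown comparison divides the Ift88 shRNA library by the control shRNA library, both under shear, and addresses what partial knockdown of Ift88 does in sheared cells. It shares the sheared control library with the shear comparison. The Ift88 ratio was 0.442 (0.354 to 0.548), so part of its transcript remained. Complex I members lay on both sides of no difference, and 1 subunit, Ndufa10, was more than 1.2-fold lower. Of the 44 members, 18 were higher and 26 lower (background 53.6% higher and 46.4% lower), with a median log2 ratio of -0.0062 against 0.010 for all expressed genes. No member was 1.2-fold higher (background 3.25%) and 1 was 1.2-fold lower (background 2.29%). None was 2-fold higher (background 0.0772%) or 2-fold lower (background 0.0676%). The interval lay above 1 for 2 of 39 members (background 19.3%) and below 1 for 5 (background 14.0%). With the same summed FPKM in each library 28 members were higher and the median was 0.025, and then 64.2% of all expressed genes were higher, so the direction of the set depends on the scaling. Of other expressed genes under 1000 bases, 43.8% were higher.

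Ndufa10, a nucleoside kinase-like subunit of the proximal membrane arm (chromosome 1, 92439486 to 92473825), was at 51.9 FPKM in static, 55.9 in sheared control and 42.3 in sheared Ift88 shRNA cells. The Ift88 shRNA library was the low one, and the sheared control library was slightly above the static one (1.08, 1.03 to 1.13). The knockdown ratio was 0.757 (0.720 to 0.796), from an estimated 3644 and 2736 fragments, and the ratio to static cells was 0.814 (0.774 to 0.857). No exon overlap or near-identical copy was found for it in the annotation used. Of the 10 proximal arm genes 6 were lower and 4, Ndufc1, Ndufc2, Ndufs5 and Ndufa13, were higher. Besides Ndufa10, the interval lay below 1 for Ndufa8 and Ndufa9. Ndufa8 was at 67.4, 77.6 and 65.1 FPKM (0.839, 0.784 to 0.898) and Ndufa9, an early subunit at the junction with the Q module, at 57.1, 63.2 and 57.3 (0.907, 0.859 to 0.957). For Ndufa8 and Ndufa9 the sheared control library was high, and the interval of the ratio between the static and Ift88 shRNA libraries included 1. Ndufa9 shares 67 exon bases with an antisense transcript.

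The other 2 members with intervals below 1 were the N module subunits Ndufs6 and Ndufa6. Ndufs6, a zinc-binding subunit, was at 66.2, 70.6 and 63.2 FPKM (0.895, 0.813 to 0.985) and Ndufa6 at 141, 159 and 149 (0.941, 0.886 to 0.999). Ndufs6 has a near-identical copy, Ndufs6b, which was not analysed here, and its value is uncertain. Among higher members were Ndufab1 (1.17, 1.12 to 1.21) and Ndufv3, a flavin module subunit, at 114, 118 and 131 FPKM (ratio 1.11, no interval). For Ndufab1 the sheared control library was low, and the levels in static and Ift88 shRNA cells were 45.3 and 45.2 FPKM.

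The N module was lower in 7 of 10 genes (median -0.026), the Q module higher in 4 of 5 (median 0.023), the proximal arm lower in 6 of 10 (median -0.015) and the distal arm lower in 6 of 11 (median -0.0067). Assembly factors were lower in 5 of 7 cases (median -0.0055), all with intervals that included 1, with Ndufaf7 at 4.97 and 4.19 FPKM (0.844, 0.706 to 1.01). Genes of complexes II to V were lower in 27 of 40 cases (median -0.032).

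The combined comparison divides the sheared Ift88 shRNA library by the static control library and shares a library with each comparison above. Of the 44 members 29 were higher and 15 lower (background 49.8% higher and 50.1% lower), with a median of 0.070 against -0.0003 for all expressed genes. Of other expressed genes under 1000 bases, 54.8% were higher and 10.7% at least 1.2-fold higher. At least 1.2-fold higher among the members were Ndufs8 (1.35, 1.24 to 1.47), Ndufa12 (1.24, 1.14 to 1.35), Ndufa5 (1.22, 1.13 to 1.32) and Ndufs5 (1.21, 1.13 to 1.30), where the background is 4.79%. Centred on genes of similar length, 2 of these calls ended: the log2 ratio of Ndufa5 went from 0.279 to 0.258 and that of Ndufs5 from 0.273 to 0.251, under the 0.263 that 1.2-fold requires, while Ndufs8 and Ndufa12 stayed past it. For Ndufs5 summed with its copy the ratio was 1.115. At least 1.2-fold lower were Ndufa10 and Ndufaf6 (background 4.48%). No member was 2-fold higher (background 0.0869%) or 2-fold lower (background 0.126%). The interval lay above 1 for 14 of 39 members (background 22.1%) and below 1 for Ndufa10 alone (background 20.5%).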

How the data were processed

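The authors deposited FPKM per gene, 1 column per library. Tools listed in the submitters' processing notes are Cufflinks 2.2.1, TopHat2 2.0.13, Trimmomatic 0.32 and bcl2fastq 1.8.4, with build mm10; their settings and strand handling are not stated in these sources. FPKM is a share of each library, and fragments of near-identical copies may be divided between them by estimation. Log2 ratios are of (FPKM + 1), for genes with a mean of at least 1 FPKM. With 1 library per group no test was run; counts past 1.2-fold and 2-fold stand beside the same over all genes. Transcript lengths came from GENCODE M21 through RefSeq accessions (99.1% of expressed genes). Library depth was fitted to the steps between low FPKM values of genes with 1 transcript of at least 1000 bases, giving a fragment length of 190 bases. Of values up to 10 fragments, 61.3% to 62.3% per library were whole within 0.1, so fragments are estimates and no count model was used. Depth and interval steps were tested on simulated data for genes with 1 transcript of at least 1000 bases. The interval step there used the simulated counts, not fragments estimated from FPKM. It does not cover the 23 members under 1000 bases that have an interval. Near-identical copies had 95% identity over at least 50% of a transcript (BLAST+ 2.17.0). Computation used Python 3.11.15, numpy 2.4.6 and scipy 1.17.1. Any member could be named; all 3 values were due for Ift88, the core subunits, the Nduf assembly factors, Ndufa4, the highest and lowest member of each module, and the 5 highest and 5 lowest ratios per comparison, with at most the 2 largest ratios per comparison from each other list. BC002163, Tssk6 and other overlapping genes were named because they share sequence with members. One member enters all counts and medians but is not reported singly here. The members and lists were chosen with earlier results of these data known. Of 11 alternatives, 9 were planned and 2 were added after the data were seen.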

Additional observations from a re-analysis of the deposited data

How the results depend on the processing

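With 1 library per group no replicate could be left out, and culture-to-culture spread is unmeasured. No paired analysis was possible because each group has 1 library and the labels carry no replicate numbers. Of the recomputed counts and medians, 114 stayed within 1.5 times the reported count or within the 95% order-statistic range of the reported median, 15 moved further and 3 changed sign. That tolerance is wide: 18 members higher in the knockdown comparison became 23 of 44, a majority, centred on length. Centred on length and GC the count became 22 of 44. The order-statistic range covers the spread among member genes of the same libraries, not the spread among cultures. All 235 recomputed ratios of the members with extreme values stayed within their counting interval, or within 0.1 (log2) where a member has none. Changing only the minimum FPKM cannot alter a member's ratio, so those values were bound to stay. So were ratios without a pseudocount where a member has an interval, because the interval was built around that ratio. Small shifts can pass as well: Ndufa5 and Ndufs5 stayed within their intervals in the combined comparison but lost their 1.2-fold calls centred on length. The shear median of 0.089 became 0.0383 when centred on genes of similar length and 0.05417 on length and GC content, with broader length bins. Members at least 1.2-fold higher with shear went from 3 to 1 under each. Members at least 1.2-fold lower with shear went from 1 to 0 with a minimum of 5 FPKM or with structural subunits only. The knockdown median of -0.0062 became 0.02474 with equal summed FPKM, where 28 members were higher, 0.004751 centred on length and 0.0009648 centred on length and GC. In the combined comparison, members at least 1.2-fold higher went from 4 to 2 centred on length, 5 with a pseudocount of 0.1 or none and 6 with equal summed FPKM, and members at least 1.2-fold lower from 2 to 1 with a minimum of 5 FPKM, equal summed FPKM or structural subunits only. Among the 27 members with no exon overlap or near-identical copy, 22 were higher with shear, 11 in the knockdown and 17 in the combined comparison, where 2 were at least 1.2-fold higher; this set has fewer genes. For the other moved values the cause was not tested. Centring on length and GC and leaving out overlapping members were chosen after seeing the data. Depth limits the assembly factors most, with an estimated 61.5 to 83.8 fragments for Ndufaf5.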
